A study of Macaca mulatta with 10 samples.

Results

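The MTRNR2L genes are nuclear genes that resemble the mitochondrial gene for 16S ribosomal RNA, and 7 of them were examined here in RNA from sorted Tr1 cells, which are CD4 T cells with a regulatory role. The members were MTRNR2L1, MTRNR2L2, MTRNR2L3, MTRNR2L6, MTRNR2L8, MTRNR2L9 and MTRNR2L10, 7 of the 26484 rows of the count table, found by their gene symbol. They were selected on their share of the counts in these libraries, so their shares are given as a description, without a test.

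The large mitochondrial ribosome subunit is built around the 16S rRNA, which the mitochondrial gene MT-RNR2 encodes and which is abundant in cells that respire. MT-RNR2 also holds a short reading frame for humanin, a peptide studied for its protection of cells against death. The nuclear MTRNR2L copies arose by transfer of mitochondrial DNA to the nucleus, and in human annotation they are listed as genes for humanin-like peptides. Because the copies resemble each other and the mitochondrial gene, short reads can align to more than one of them.

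RNA was measured in 10 rhesus monkeys, with 1 library per monkey. All were made diabetic with streptozotocin, received an intraportal islet allograft from a donor that shared one MHC class II DRB allele, and were given transient immunosuppression with an anti-CD40 antibody, rapamycin, soluble TNF receptor and an anti-IL-6 receptor antibody. The 5 Cohort C monkeys also received apoptotic donor leukocytes (ADLs), and the 5 Cohort B monkeys did not. Tr1 cells were sorted as CD4+CD49b+LAG-3+ cells from blood cells that had been frozen, thawed and rested overnight. Per the labels, sampling was at rejection without ADLs and at the end of the study with them, and the paper's account of 13EP12, 13EP8 and 15CP1 differs from this. By the labels, the cohort and the occasion of sampling cannot be told apart. The paper reports that some Cohort B monkeys kept their grafts for a year, so rejection may not have set the occasion for all of that cohort. Ages are not given in the labels. The reads of these macaque cells were aligned to the human genome, hg38. Of the 7 members, the macaque RefSeq table lists 3 under the same symbol, MTRNR2L3 as protein-coding and MTRNR2L6 and MTRNR2L10 as pseudogenes.

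Total counts ran from 6076 (14HP31) to 5895609 (15CP1). The 10 libraries differed widely in quality before any cohort was considered. Without the MTRNR2L genes, 4 libraries held over 1000000 counts (13EP12, 13EP8, 13EP5 and 15CP1), and the other 6 held between 5127 and 345879. The 6 T cell marker genes were all detected in those 4 deep libraries, where they summed to between 0.124% and 0.149% of the counts. They summed to 0.0729% in 15CP6, 0.0475% in 14HP24 and at most 0.00124% in 14HP33 and 14HP26, and all 6 were at 0 in 14HP31 and 15CP4. The sort markers ITGA2 (CD49b) and LAG3 had counts in the 4 deep libraries alone, LAG3 in 3 of them, so the labelled cell type was not visible in the RNA of several of the other libraries. Monocyte markers summed to at most 0.0343% of any library, and the B cell, CD8 and NK, platelet and erythroid lists to at most 0.0413%. In the deep libraries and 15CP6 the T cell list had the largest sum of these lists. In 14HP33 the erythroid list had 93 counts, all of HBB, against 12 for the T cell list. In 14HP26 the B cell list had 10 against 1, and in 14HP24 the monocyte list had 47 against 65. In 14HP31 and 15CP4 all these lists were at 0. In bulk RNA, fewer cells of a type and less RNA per cell cannot be told apart.

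MTRNR2L1, the most abundant copy by counts in every library, held 2.30% of all counts in monkey 13EP12, 2.82% in 13EP8, 20.7% in 14HP26, 10.0% in 14HP31 and 18.8% in 15CP6, the 5 Cohort B monkeys. In Cohort C it held 2.41% in 13EP5, 82.6% in 14HP33, 17.4% in 14HP24, 2.50% in 15CP1 and 31.7% in 15CP4. Each cohort had 2 monkeys under 3%, and Cohort C monkeys 15CP4 and 14HP33 lay above every Cohort B monkey while the other 3 lay within the range of Cohort B. Counting error was small against these differences, the 95% Wilson interval being 9.28 to 10.8% in the shallowest library, 14HP31, and 82.6 to 82.7% in 14HP33. MTRNR2L1 was the gene with the most counts in 5 libraries (14HP26, 15CP6, 14HP33, 14HP24 and 15CP4) and among the top 10 in all 10. Its mean share was 10.9% ± 8.63 (SD, n = 5) in Cohort B and 27.3% ± 33.2 (SD, n = 5) in Cohort C. With 14HP33 set aside the Cohort C mean was 13.5% ± 14.0 (SD, n = 4).

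**Figure D1:**
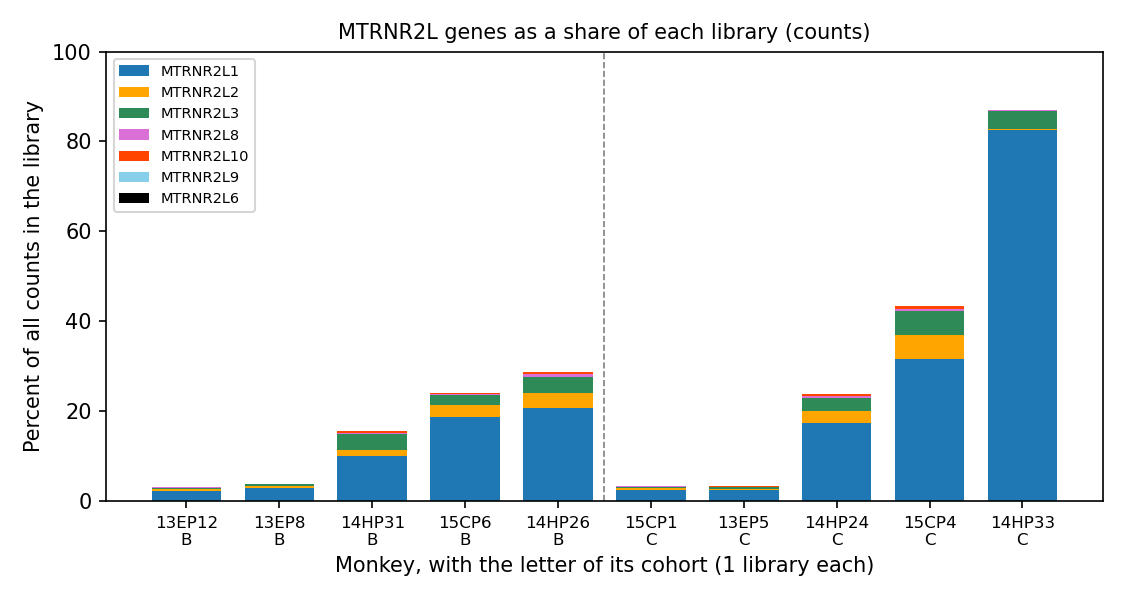
Share of all counts held by each of the 7 MTRNR2L genes (stacked bars, percent) in each library, ordered by the summed share within Cohort B (left of the dashed line) and Cohort C (right). The sum lay between 3.09% and 3.89% in 13EP12, 13EP8, 13EP5 and 15CP1 and reached 87.0% in 14HP33.

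Together the 7 genes held 3.09%, 3.89%, 28.8%, 15.6% and 24.1% of the counts of Cohort B monkeys 13EP12, 13EP8, 14HP26, 14HP31 and 15CP6. In the Cohort C monkeys, again in the order 13EP5, 14HP33, 14HP24, 15CP1 and 15CP4, they held 3.30%, 87.0%, 23.8%, 3.29% and 43.4%. The low values were those of the 4 deep libraries, 2 in each cohort. The gene with the most counts outside the family was MALAT1, a nuclear long noncoding RNA, in 13EP12, 13EP8, 13EP5, 15CP1 and 15CP4. It was the small nuclear RNA RNU11 in 14HP26, RAPH1 in 14HP31, RN7SK in 15CP6, RN7SL2 in 14HP33 and RNU5B-1 in 14HP24. These leading genes held between 2.47% and 14.5% of their library, so in 14HP33 the next gene outside the family, at 3.06%, was far below MTRNR2L1.

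The raw counts of MTRNR2L1 did not follow its share. They were 27384, 39280, 23580, 608 and 85470 in Cohort B monkeys 13EP12, 13EP8, 14HP26, 14HP31 and 15CP6. In Cohort C they were 80609 in 13EP5, 800281 in 14HP33, 23821 in 14HP24, 147511 in 15CP1 and 21074 in 15CP4. Libraries with a high share therefore did not in general hold more MTRNR2L1 counts than the deep ones: 14HP26, 14HP24 and 15CP4 each held fewer than 13EP12. Only 14HP33 combined the highest share with the highest count, and it held 64.0% of the 1249618 MTRNR2L1 counts of all libraries. Per 1000000 counts of genes outside the family, MTRNR2L1 stood at 23730 in 13EP12, 29360 in 13EP8, 24950 in 13EP5 and 25870 in 15CP1. In the other 6 libraries it stood between 118600 (14HP31) and 6342000 (14HP33). The ratio of MTRNR2L1 to all other RNA was thus nearly the same in the 4 deep libraries, 2 of each cohort, and higher in every one of the 6 shallow ones.

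MTRNR2L2 and MTRNR2L3 were the next copies by counts. MTRNR2L2 had 5061, 6980, 3835, 77 and 12220 counts in Cohort B and 13357, 321, 3727, 27600 and 3455 in Cohort C, with the monkeys in the same order. MTRNR2L3 had 3410, 6144, 4139, 224 and 10036 counts in Cohort B and 11234, 40633, 3858, 15326 and 3654 in Cohort C. The cohorts overlapped for both genes. Monkey 14HP33 was the highest library for MTRNR2L3, while for MTRNR2L2 only 14HP31, the shallowest library, had fewer counts.

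MTRNR2L1 held most of the family's counts in every library, and its part of them varied less than the family's share of the library. MTRNR2L1 held 74.3%, 72.5%, 72.01%, 64.1% and 78.0% of the family's counts in Cohort B, and 73.2%, 73.1%, 76.2% and 73.0% in Cohort C monkeys 13EP5, 14HP24, 15CP1 and 15CP4, although the family's share of the library ran from 3.09% to 43.4% in these 9 libraries. In 14HP33 it held 95.02%. The ratio of MTRNR2L1 to MTRNR2L2 counts lay between 5.35 (15CP1) and 7.90 (14HP31) in the 9 libraries and was 2493 in 14HP33, where MTRNR2L2 was 0.0381% of the family. The ratio of MTRNR2L1 to MTRNR2L3 lay between 2.71 (14HP31) and 9.63 (15CP1) in the 9 and was 19.7 in 14HP33. MTRNR2L3 was between 7.91% (15CP1) and 23.6% (14HP31) of the family in the 9, and 4.82% in 14HP33. Against the other libraries, then, 14HP33 had many counts of MTRNR2L1 and MTRNR2L3 and few of MTRNR2L2. These are ratios of counts, not corrected for length, and how the counting assigned reads that matched several copies is not given in the sources used here.

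MTRNR2L8 and MTRNR2L10 were minor copies by counts. MTRNR2L8 had 611, 955, 643, 16 and 1229 counts in Cohort B and 3683, 509, 579, 2406 and 245 in Cohort C. MTRNR2L10 had 333, 687, 527, 22 and 612 in Cohort B and 1147, 222, 556, 785 and 424 in Cohort C. Each held between 0.405% and 3.35% of the family's counts in the 9 libraries other than 14HP33, while in 14HP33 MTRNR2L8 held 0.0604% and MTRNR2L10 0.0264%. As with MTRNR2L2, their shares of the family were lowest in 14HP33.

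MTRNR2L9 and MTRNR2L6 had the fewest counts of the members. MTRNR2L9 had 44, 143, 22, 0 and 20 counts in Cohort B and 58, 154, 66, 57 and 0 in Cohort C. Its 0 counts allow a share of up to 0.0494% in 14HP31 and 0.00451% in 15CP4, taking 3 counts as the limit. MTRNR2L6 had 28 counts in 13EP8, 2 in 14HP31, 2 in 13EP5, 109 in 14HP33 and 10 in 15CP4, and 0 in the other 5 libraries. MTRNR2L6 was above 3 counts in 3 libraries, and 14HP33 held 72.2% of its counts. Of the other family symbols in the table, MTRNR2L5 had 57 counts in all, MTRNR2L7 had 7 and MTRNR2L4 had none.

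**Figure D2:**
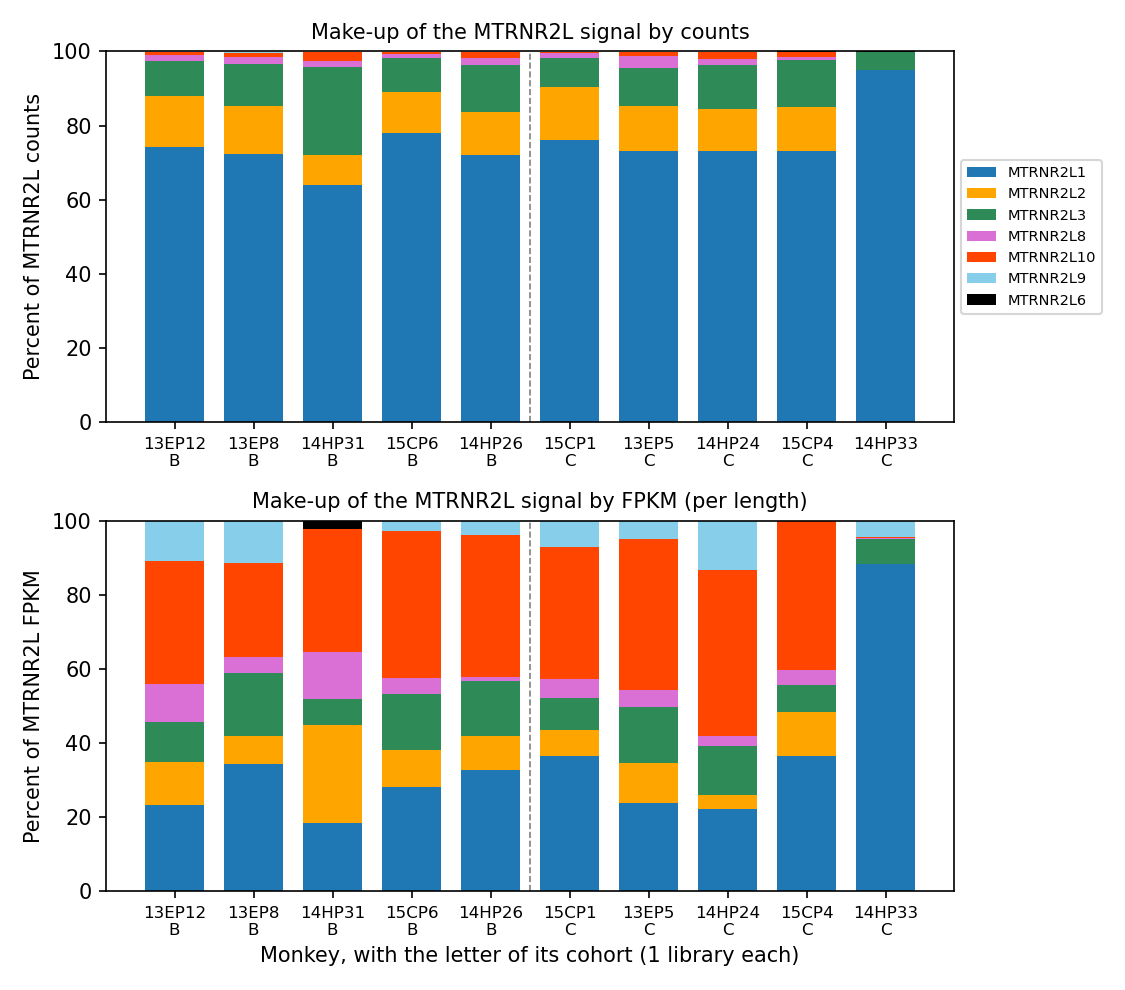
Make-up of the MTRNR2L signal in each library, as percent of the summed counts of the 7 genes (top) and percent of their summed FPKM, a level per length (bottom), with libraries in the same order. By counts MTRNR2L1 held 64.1 to 78.0% of the bar outside 14HP33, and by FPKM it held 18.4 to 36.5% there and MTRNR2L10 25.5 to 44.7%.

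The FPKM table gave another order of the copies. In FPKM (fragments per kilobase of exon scaled to library size, from the authors' separate table), MTRNR2L10 was the highest copy in 7 of the 10 libraries and MTRNR2L1 in the other 3, which were 13EP8, 14HP33 and 15CP1. MTRNR2L10 stood at 407, 782, 3113, 1405 and 798 FPKM in Cohort B and 3741, 30.9, 1561, 218 and 9255 in Cohort C. MTRNR2L1 stood at 286, 1050, 2649, 781 and 567 FPKM in Cohort B and 2197, 6307, 771, 225 and 8353 in Cohort C. The ratio of the FPKM of MTRNR2L10 to that of MTRNR2L1 was between 0.744 and 2.03 in 9 libraries and 0.00490 in 14HP33, so the departure of 14HP33 was seen in both tables. From 13EP8 to 15CP6 this ratio rose from 0.744 to 1.41, while MTRNR2L10 fell from 1.27% to 0.559% of the family's counts. The tables thus did not differ by a fixed factor per copy, and the new order cannot be read as one of length alone. The cause was not tested.

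The whole family made up between 0.0119% (15CP1) and 0.628% (14HP26) of the summed FPKM of a library, compared with 3.09 to 87.0% of its counts. By FPKM, 14HP26 rather than 14HP33 had the largest family share, and 14HP33 followed at 0.613%. The summed FPKM itself ran from 1166000 in 14HP33 to 10370000 in 13EP5. Monkeys 13EP5 and 15CP1 had MTRNR2L1 at 2.41% and 2.50% of the counts, but at 2197 and 225 FPKM. Levels in FPKM are therefore hard to compare between libraries. For single copies the tables also parted. MTRNR2L2 had 321 counts in 14HP33 but was listed at 0 FPKM there. MTRNR2L6, with 28 counts in 13EP8 and 10 in 15CP4, was listed at 0 FPKM in both, and with 2 counts in 14HP31 it was listed at 98.4 FPKM.

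The share of MTRNR2L1 was set against depth and the number of genes detected, with all MTRNR2L symbols left out of both. Genes detected numbered 8893, 10216, 2746, 459 and 4840 in Cohort B and 11865, 1650, 3341, 15060 and 884 in Cohort C. To take out depth, the number of genes expected at 5127 counts, the smallest total outside the family, was computed for each library. It was 2257, 2283, 1500, 459 and 1909 in Cohort B and 2491, 458, 1548, 2396 and 635 in Cohort C. At equal depth the 4 deep libraries still showed the most genes, and 14HP33 and 15CP4, which had the highest MTRNR2L1 shares, showed few. Monkey 14HP31 showed as few as 14HP33 with a MTRNR2L1 share of 10.0%.

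**Figure D3:**
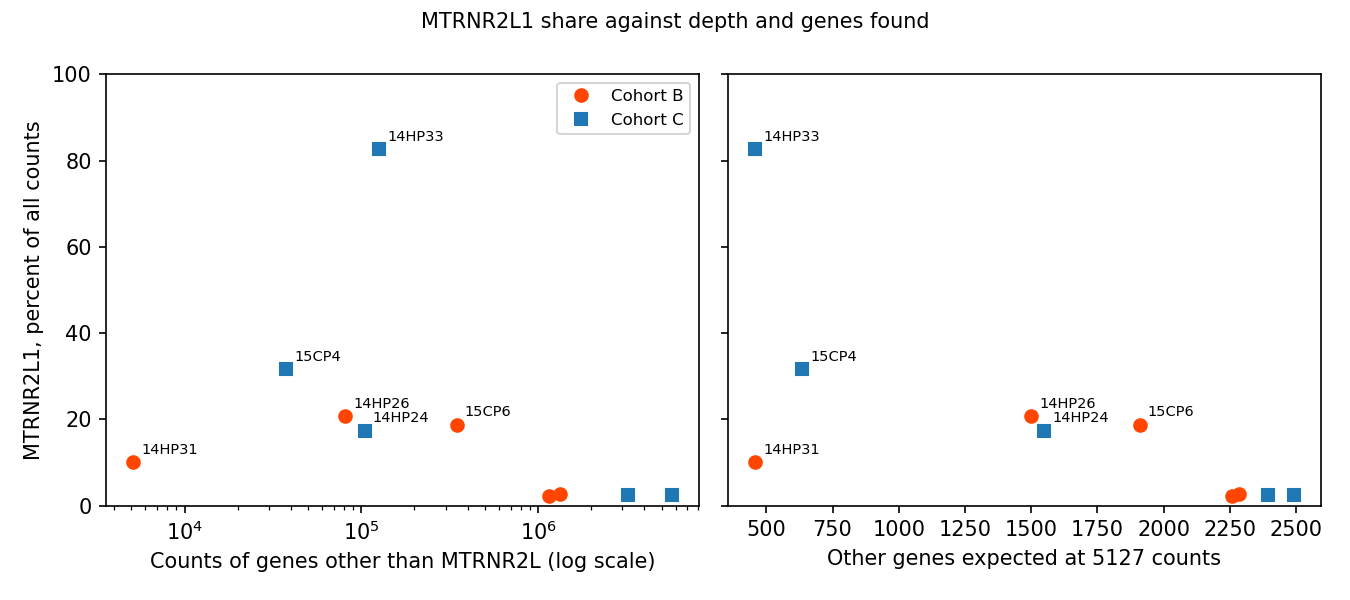
MTRNR2L1 share of all counts (vertical axis, percent) against the counts of genes outside the family (left, log scale) and against the number of other genes expected when every library is reduced to 5127 such counts (right). Each point is 1 library. The 4 libraries over 1000000 other counts sit together at 2.30 to 2.82%, and the other 6 spread from 10.0 to 82.6%.

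Because the libraries formed 2 separate sets in share and depth, relations with the share were read within the 6 libraries under 1000000 other counts; the 4 deep libraries were too few. Their coefficients are a description, with no p, since the genes were selected on the share. Within the 6, the MTRNR2L1 share had Pearson r = 0.304 and Spearman rho = 0.314 with log10 other counts. With the number of genes detected, r was -0.208 and rho -0.0286, and with the genes expected at equal depth, r was -0.471 and rho -0.371. The share and the other counts come from the same total, so they are not independent measures.

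The number of MTRNR2L1 counts, as opposed to its share, rose with the other counts over the 10 libraries by rank. Raw counts of a gene generally rise with depth, and this relation was not computed for other genes. The values below therefore do not set MTRNR2L1 apart. On log10 scales rho was 0.745 (permutation test, two-sided p = 0.0178, adjusted p = 0.0354) and r was 0.612 (permutation p = 0.0576, adjusted p = 0.0767). Without 14HP33 alone, r was 0.847 and rho 0.900 (n = 9, exact permutation adjusted p = 0.00668 and 0.00811). Without 14HP31 and 15CP1, the libraries farthest from the median depth, r was 0.0880 and rho 0.619 (n = 8, exact permutation adjusted p = 0.868 and 0.115), so the call by rank was lost without them. It was also lost without 14HP26, 14HP31, 14HP24, 15CP1 or 15CP4 alone, with rho between 0.650 and 0.733 (n = 9, exact permutation). Within the 6 libraries under 1000000 other counts, r was 0.828 and rho 0.943 (exact permutation adjusted p = 0.272 and 0.0667). A suffix in the label description marks 3 libraries (15CP6, 14HP33 and 15CP1), and the labels do not say what it stands for. Within the 7 libraries without it, which leave out 14HP33, r was 0.838 and rho 1 (exact permutation adjusted p = 0.000794 and 0.00159). Before adjustment the exact permutation p was 0.000198, the smallest that 7 libraries allow, and 0.000397. This subset was added after seeing the data, and 3 libraries with the suffix were too few.

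Genes whose level ran most like that of MTRNR2L1 were sought among 2855 genes detected in at least 6 libraries, by the Pearson r of log2(counts per 1000000 other counts + 1) over the 10 libraries. The 5 highest outside the members were RPPH1, the RNA of RNase P (r = 0.858), RNU11, the U11 small nuclear RNA (0.826), RNU5B-1, a U5 small nuclear RNA (0.785), MTRNR2L5 (0.782) and RNU6-36P, a U6 pseudogene (0.743). They are a description over libraries that share depth and a denominator, and the median r of all 2855 genes was -0.53, with 179 above 0. RPPH1 held 2101 and 2899 counts per 1000000 other counts in 13EP12 and 13EP8 and 129500 in 14HP33, and without 14HP33 its r was 0.705. RNU11 kept r = 0.804 without 14HP33, and it stood at 34.4 in 13EP5, 337 in 15CP1 and 38840 in 14HP26.

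The members followed MTRNR2L1 to different degrees. On the same scale r was 0.961 for MTRNR2L3, 0.768 for MTRNR2L8, 0.660 for MTRNR2L10, 0.575 for MTRNR2L6, 0.342 for MTRNR2L9 and 0.267 for MTRNR2L2. Without 14HP33, r was 0.996 for MTRNR2L2, 0.971 for MTRNR2L3, 0.949 for MTRNR2L8 and 0.938 for MTRNR2L10, while MTRNR2L6 stood at 0.288 and MTRNR2L9 at -0.0428. Over these 9 libraries the 4 copies with many counts thus had a high r with MTRNR2L1, and the 2 copies with few counts did not. These r pool deep with shallow libraries, and r within the shallow ones is not given. They therefore do not show that the copies ran in step there. From 14HP31 to 15CP6, both shallow, MTRNR2L1 rose from 118600 to 247100 before the log, while MTRNR2L10 fell from 4291 to 1769. In 15CP4, also shallow, both genes were higher, at 560200 and 11270.

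The cytosolic ribosomal RNAs in the table were set beside the MTRNR2L share. RNA18S5, the 18S rRNA of the small subunit, had 14361, 29948, 0, 0 and 71 counts in Cohort B and 32016, 2, 5, 13560 and 0 in Cohort C. RNA28S5, the 28S rRNA of the large subunit, had 32343, 27844, 160, 146 and 369 in Cohort B and 48291, 208, 418, 43733 and 45 in Cohort C. As a share of the library, 18S was between 0.230% and 2.15% in the 4 deep libraries, where the MTRNR2L share was lowest, and at most 0.0156% in the other 6. For 28S the sets overlapped. Its share was between 0.742% and 2.72% in the deep libraries and at most 0.305% in 5 of the others, but 2.40% in 14HP31. The mitochondrial genes themselves could not be set beside their nuclear copies, since no symbol starting with MT- is among the rows analysed. RN7SL2, a signal recognition particle RNA, had 29668 counts in 14HP33, and the 14 listed structural RNAs took 39.3% of the counts outside the family there, against 2.04 to 11% in the other 9 libraries.

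Cohort C was compared with Cohort B to ask which of these genes differed in monkeys given ADLs, by edgeR's quasi-likelihood test over all 14168 genes with at least 10 counts. In TMM-scaled counts MTRNR2L1 was higher in Cohort C by 4.85 on the log2 scale, with a standard error of 1.10. Its unadjusted p of 1.0e-05 was the smallest of all genes in this fit, and after adjustment p was 0.141. The members were selected on their share of these same counts, which for MTRNR2L1 was 82.6% in Cohort C monkey 14HP33. Their p-values and ranks in the cohort comparison are therefore a description and not independent evidence. At the same fold change, edgeR's exact test gave an unadjusted p of 0.0099 (rank 337). The quasi-likelihood test over all genes with at least 1 count gave 0.012 (rank 1248). With TMM factors and totals that left the family out, that test gave MTRNR2L1 1.2e-05 (rank 1). MTRNR2L3 had 3.32 (standard error 1.40, adjusted p = 0.147), MTRNR2L6 had 4.36 (2.32, adjusted p = 0.267) and MTRNR2L9 had 2.98 (2.04, adjusted p = 0.508). MTRNR2L8 had 0.71 (1.72), MTRNR2L10 0.64 (1.76) and MTRNR2L2 -0.12 (1.51), each with an adjusted p of 0.9998. For every member except MTRNR2L2 the value was above 0, and the median over the 7 was 2.98, beside 0.16 over all genes tested.

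By 1 criterion that the paper states, a raw p under 0.01 and a change of 1.5-fold or more, 1 of the 7 members was called, MTRNR2L1, higher in Cohort C. In the same comparison 6.43% of all genes tested were called, and 1.07% were called higher. At an adjusted p under 0.05, edgeR called 0 of the 7 and 0% of all genes, with 2 members (MTRNR2L1 and MTRNR2L3) at an unadjusted p under 0.05, as were 20.6% of all genes. DESeq2 gave no p for MTRNR2L1, and limma-voom gave it an adjusted p of 0.9996.

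The fold changes rested on 1 library. Without Cohort C monkey 14HP33, the log2 fold change of MTRNR2L1 was 0.0014 (standard error 1.02, adjusted p = 0.9997), that of MTRNR2L3 was 0.04 and that of MTRNR2L6 was -0.12, and none of the 7 was called. The median over the 7 members was then 0.04, beside 0.32 over all genes. Without Cohort C monkey 13EP5, 15CP1 or 15CP4, in contrast, MTRNR2L1 passed the adjusted threshold, with log2 fold changes of 5.19, 5.19 and 5.16 and adjusted p of 0.00256, 0.00332 and 0.00699 (edgeR).

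**Figure D4:**
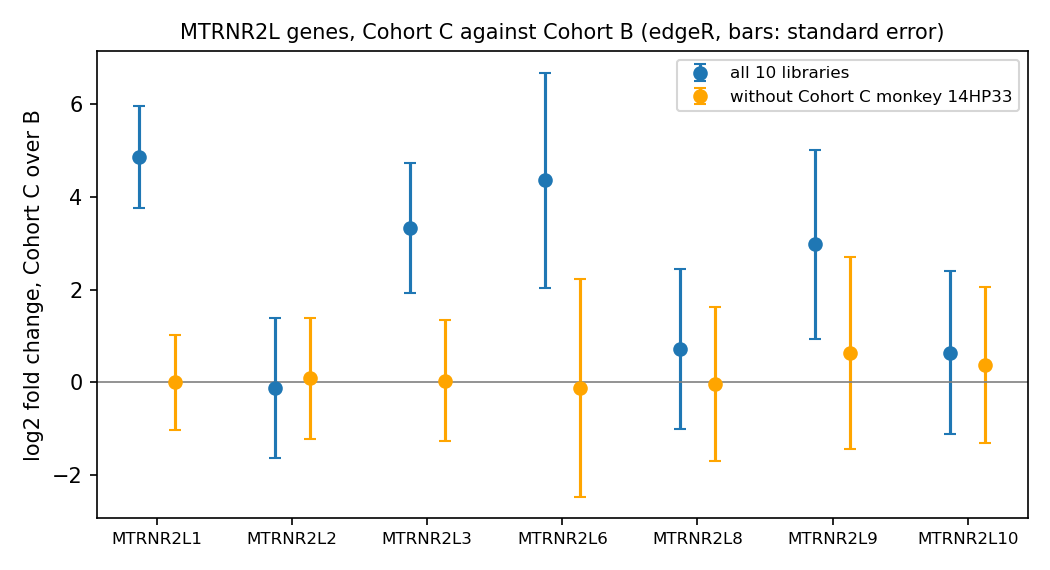
log2 fold change of each MTRNR2L gene in Cohort C over Cohort B (edgeR, points, with the standard error as bars) with all 10 libraries and without Cohort C monkey 14HP33. The value for MTRNR2L1 is 4.85 with all libraries and 0.0014 without 14HP33, and the bars of all 7 genes cross 0 without it.

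The size of the MTRNR2L1 fold change also depended on how the libraries were scaled. TMM, which scales libraries by the bulk of their genes, gave 14HP33 a factor of 0.0727, so that its scaled size of 70420 was below its own 800281 counts of MTRNR2L1. With library totals alone the log2 fold change of MTRNR2L1 was 1.32 (standard error 1.04, adjusted p = 0.622), and no member was called. With totals that left the family out, and no TMM factor, it was 3.34 (1.09, adjusted p = 0.0659). With a term for the label suffix in the fit it was 1.62 (0.81, adjusted p = 0.392). In the FPKM table, limma on log2(FPKM + 1) gave 1.17 (1.27, adjusted p = 0.992) for MTRNR2L1, on a scale that understates low genes, and 3 of the 7 members were above 0.

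The family is part of the denominator of every other gene's level. In 14HP33 the total of all counts was 7.68 times the total outside the family, so the level of any other gene relative to all counts was lower by that factor than its level relative to the other counts. In the other 9 libraries the same factor was between 1.03 and 1.77.

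Genes tied to humanin were compared between the cohorts in the same fit. The list held 12 genes, among them the formyl peptide receptors FPR1, FPR2 and FPR3, the receptor subunits CNTFR, IL27RA and IL6ST, and the cell death genes BAX, BID and BCL2L11, to whose products humanin has been reported to bind. Of the 11 tested, 0 were called at an adjusted p under 0.05 and 0 at the raw threshold, which called 6.43% of all genes. In edgeR, CNTFR and FPR2, 2 of the 11, had an unadjusted p under 0.05, beside 20.6% of all genes. There were 5 values above 0 and 6 below, with a median of -0.10. IL6ST, the gp130 subunit, had 168 and 125 counts in 13EP12 and 13EP8, 601 in 13EP5, 908 in 15CP1 and none in the other 6 libraries. CNTFR had 10 counts, all in 14HP24, and FPR2 had 22, all in 15CP1. The list summed to between 0.0319% and 0.0544% of the counts in the deep libraries, to 0.0397% in 15CP6, 0.0246% in 14HP26 and 0.00803% in 14HP24, and to at most 0.00150% in 14HP31, 14HP33 and 15CP4.

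The machinery that makes and matures mitochondrial 16S rRNA was listed as 18 genes, 16 of them in the table, all tested. By edgeR none was called at either threshold, 2 of the 16 (POLRMT and TEFM) had an unadjusted p under 0.05 (20.6% of all genes did), 6 values were above 0 and 10 below, and the median log2 fold change was -0.50. GRSF1, a protein of mitochondrial RNA granules, had 153 and 19 counts in 13EP12 and 13EP8, 333 in 13EP5, 263 in 15CP1 and 1 in 15CP4. TFAM, the mitochondrial transcription factor, had counts only in 13EP12 (58), 13EP5 (71) and 15CP1 (110). In 14HP33, where MTRNR2L1 held most of the library, the 16 genes had 4 counts in all, those of NSUN4, which methylates mitochondrial rRNA. LRPPRC, a mitochondrial RNA-binding protein, was the exception in the shallow libraries, with 423 counts in 14HP26.

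Of the 11 abundant structural RNAs tested, 0 were called at either threshold by edgeR in the cohort comparison and 2 had an unadjusted p under 0.05 (20.6% of all genes), with 4 values above 0, 7 below and a median of -0.22. RN7SL2 was at 3.83 on the log2 scale (standard error 1.49, adjusted p = 0.141) and RPPH1 at 3.61 (1.56, adjusted p = 0.157). Both had more counts in 14HP33 than in any other Cohort C library except 15CP1 for RN7SL2. The 8 housekeeping genes were all detected in 13EP5 and 15CP1, and 2 to 4 of them in 14HP26, 14HP31, 14HP33, 14HP24 and 15CP4. The T cell marker share and the 18S share were higher in each of the 4 deep libraries, with their low MTRNR2L shares, than in any of the other 6, and no fewer housekeeping genes were seen there. Among the other 6 the order differed: 15CP6 had 6 housekeeping genes with a MTRNR2L share of 24.1%, and 14HP31 had 2 with a share of 15.6%. The part of these measures in the MTRNR2L values was not tested.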

How the data were processed

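The authors assessed reads with FastQC, aligned them to the human genome hg38 with HISAT2 2.0.2 and deposited raw counts per gene symbol. How the counting treated strand, duplicates and multiply aligned reads is not given in the sources used here. FPKM values per gene were deposited separately and were made by the authors with Cuffdiff 2.2.1. Libraries were Clontech Pico stranded total RNA, read as paired ends. Every column was mapped to a monkey by its label.

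The members and gene lists were chosen with earlier results of these data known. The genes named were every MTRNR2L symbol, the leading other gene of each library, the 5 genes most like MTRNR2L1, and genes of the lists. The 26484 rows of counts included 2 symbols that occur more than once. Counts were tested with edgeR 4.0.16 (R 4.3.3), with TMM factors and the quasi-likelihood test, over 14168 genes with at least 10 summed counts, and p-values were adjusted by Benjamini-Hochberg over all of them. Standard errors were derived from edgeR's F statistic. The test was tried on simulated data with a dispersion (spread between libraries) below the common dispersion of 4.738 fitted here. That trial therefore does not show how the test behaves on these data. FPKM were tested as log2(FPKM + 1) with limma 3.58.1, over genes averaging 1 FPKM or more. Genes at equal depth were computed as the exact expectation of drawing 5127 counts without replacement. Permutation tests drew 100000 resamples over 10 libraries and all orders below that, with p-values adjusted over 4 relations. For the relations, p-values are printed for the counts of MTRNR2L1 and not for its share, on which the genes were selected. The cohort comparison uses the counts behind that selection, so the p-values of the members there are a description. Intervals (95% Wilson) and the limit of 3 counts cover counting error only. Each cohort's 5 libraries came from different monkeys.

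The alternatives were other scalings (library totals, RLE size factors, totals without the MTRNR2L genes) and other filters (at least 1 count, filterByExpr). Other tests were edgeR's exact test, DESeq2 1.42.0, limma-voom and the FPKM table with pseudocounts of 1 and 0.1. Designs with the replicate numbers as a block or with the label suffix were also fitted, and each library was left out. The relations within the libraries under 1000000 other counts and within those without the label suffix were added after seeing the data.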

Additional observations from a re-analysis of the deposited data

Results flagged for a closer look

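A library that stood apart from the other 4 of its cohort, by its gap to the nearest value over the range, was found in 6 of 36 sets of 5 values. This measure flags about 1 in 20 sets of independent values. The sets here share libraries and totals, so the number is a description and no excess over chance can be read from it. In Cohort C, monkey 14HP33 was apart in the make-up of the family, with MTRNR2L1 at 95.02% of the MTRNR2L counts (73.0 to 76.2% in the others) and MTRNR2L2 at 0.0381% (11.4 to 14.3% in the others). Monkey 14HP24 was apart with MTRNR2L9 at 0.202% of the MTRNR2L counts, which are 66 counts. In Cohort B, monkey 14HP31, the library of 6076 counts, was apart with MTRNR2L3 at 23.6% of the MTRNR2L counts (9.16 to 12.6% in the others). The same library had MTRNR2L6 at 0.0329% of its counts and 0.211% of the MTRNR2L counts, values that rest on 2 counts. The family's summed share in 14HP33 was not apart by the same measure.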

How the results depend on the processing

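Over the 24 alternatives the log2 fold change of MTRNR2L1 stayed above 0, and it passed an adjusted p of 0.05 in 3 of them, each leaving out a Cohort C monkey. With each library left out it ran from 0.0014 (without 14HP33) to 5.79 (without 15CP6). The number of members called at the unadjusted threshold was 1 in the reported fit. It was 0 with library totals alone, a filter of 1 count, the replicate block or the label suffix. It was also 0 with limma-voom and with DESeq2, which gave MTRNR2L1 no p. With each library left out it ran from 0 to 2, and the number at an adjusted p under 0.05 from 0 to 1. MTRNR2L3 and MTRNR2L9 stayed above 0 throughout, but within their standard error without 14HP33, at 0.037 (1.31) and 0.64 (2.07). MTRNR2L2 turned from -0.12 to 0.10 with library totals, 0.38 with totals without the family, 0.038 with the replicate block and 0.12 with limma-voom, and ran from -0.47 to 1.04 with each library left out. MTRNR2L8 turned to -0.29 with library totals, -0.15 with RLE size factors and with DESeq2, and -0.57, -0.60 and -0.57 in the FPKM table (pseudocount 1, pseudocount 0.1, no filter), and ran from -0.044 to 1.57. MTRNR2L6 turned to -1.06, -1.19 and -1.06 in the same FPKM fits and ran from -0.12 to 5.78. MTRNR2L10 turned to -0.31, -0.32 and -0.31 in them. MTRNR2L6 had no value with filterByExpr. The cause of these turns was not tested. The scaling moved the median of all genes from 0.16 to -0.10 with library totals.

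The replicate numbers of the labels name different monkeys, and same-numbered deviations correlated at 0.375, -0.401, -0.00265, -0.397 and -0.0215. With the replicate block the log2 fold change of MTRNR2L1 was 0.71 (standard error 1.31, adjusted p = 1), and 0 of all genes were called, against 911.

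Pooled over all 10 libraries, and so resting on the contrast of deep with shallow libraries, Pearson r of the MTRNR2L1 share was -0.375 with log10 other counts, -0.580 with genes detected and -0.696 with genes at equal depth (no p is given, since the genes were selected on the share), and rho was -0.636, -0.709 and -0.794. With each library left out r ran from -0.649 to -0.305, from -0.791 to -0.544 and from -0.879 to -0.673, and that of log10 MTRNR2L1 counts from 0.226 to 0.847. With genes detected r was -0.687 without 14HP31 and the logit share gave -0.776, and depth as all counts gave 0.793 for the counts. With genes at equal depth, the FPKM share gave -0.593 and libraries without the label suffix -0.711. For the same relation, libraries under 1000000 other counts gave -0.471, and r was -0.693 without 15CP4. Libraries under 1000000 other counts turned the relation with log10 other counts to 0.304, and libraries without the label suffix gave 0.838 for the counts. The median MTRNR2L1 share, 13.7% of all counts, was 73.1% of the family's counts and 0.0225% of summed FPKM, and ran from 10.0 to 17.4% with each library left out. At 6076 counts, 3 counts are 0.0494% of 14HP31, so MTRNR2L6 and MTRNR2L9 could not be measured there.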
